A study of Mus musculus with 12 samples.

Results

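The MCM replication licensing genes are Mcm2, Mcm3, Mcm4, Mcm5, Mcm6 and Mcm7, which encode the subunits of the ring-shaped helicase that opens DNA during replication. Members were taken by gene symbol, and every probe set listed with 1 of these symbols was kept. The arrays carried 16 such probe sets for the 6 genes, among 22626 probe sets, of which 20380 were listed with exactly 1 gene symbol, for 12393 genes in all. Expression was measured in lung and liver tissue of female nude NCR mice at day 7, on 12 Affymetrix mouse arrays of the MOE430A_2 design. Tumor-bearing mice carried an orthotopic tumor grown from injected 4T1 cells, a mouse mammary carcinoma line, and the submitters call their organs pre-metastatic. Control mice of the same strain and sex were injected with PBS. Each of the 4 groups (lung tumor, lung control, liver tumor, liver control) held 3 arrays. Nude mice lack a thymus and so mature T cells, which limits the tumor hosts and the controls alike as models of an intact immune system.

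The MCM subunits assemble into a heterohexamer that the origin recognition complex, Cdc6 and Cdt1 load onto replication origins in G1 phase, a step called licensing. In S phase Cdc45 and the GINS complex bind the loaded ring, and kinases switch it into the moving helicase. Transcription of the MCM genes is driven largely by E2F factors as cells leave quiescence, so quiescent adult tissue such as normal liver has low levels of these proteins and regenerating liver has high levels.

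The sequence around the start of transcription is shown because the 6 genes are known E2F targets and were followed together here. RefSeq windows of 300 bases (250 before the start and 50 after it, GRCm38.p6) were at hand for 5 of the 6 genes, and none was given for Mcm4. Each window was searched on both strands for 4 E2F-type words, TTTGGCGC, TTTCCCGC, TTTCGCGC and TTTGCCGC, and for CCAAT, with overlapping matches kept. The E2F-type words lay in windows of Mcm3, Mcm5, Mcm6 and Mcm7 and in none of Mcm2. By comparison, 2.26% of all 32851 RefSeq windows and 3.98% of the 8190 windows of genes tested in liver held one. CCAAT lay in a window of each of the 5 genes, and in 37.4% of all windows. A match describes these letters only. The 250 bases before the start are given for Mcm5 (chr8:75109259-75109508, plus strand) and Mcm6 (chr1:128359706-128359955, minus strand). For Mcm3 (chr1:20820266-20820295) and Mcm7 (chr5:138172030-138172059 and chr5:138171849-138171878), all on the minus strand, 30 bases around the matches are given. Each sequence reads 5′ to 3′ along its gene, with the E2F-type words of either strand in capitals and CCAAT left in lower case. In the Mcm7 stretch at the start, a CCAAT begins at base 24 and shares its first base with the capitalised word.
Mcm5: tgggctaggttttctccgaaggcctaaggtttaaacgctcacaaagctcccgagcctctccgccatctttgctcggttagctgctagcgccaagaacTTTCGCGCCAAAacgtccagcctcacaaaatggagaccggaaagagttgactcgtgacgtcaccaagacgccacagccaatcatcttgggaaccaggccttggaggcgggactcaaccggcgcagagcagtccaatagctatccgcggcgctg
Mcm6: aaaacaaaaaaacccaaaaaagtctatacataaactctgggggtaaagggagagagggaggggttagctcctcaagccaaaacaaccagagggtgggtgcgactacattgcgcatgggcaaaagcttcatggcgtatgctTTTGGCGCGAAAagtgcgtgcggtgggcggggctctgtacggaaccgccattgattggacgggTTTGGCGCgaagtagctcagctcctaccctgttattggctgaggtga
Mcm3: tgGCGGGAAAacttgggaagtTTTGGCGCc
Mcm7 upstream: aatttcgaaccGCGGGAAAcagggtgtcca
Mcm7 at the start: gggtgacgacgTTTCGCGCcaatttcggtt
E2F-type words lay at 2 places in the printed Mcm6 bases and at 1 place in those of Mcm5. The Mcm5 start used is base 75109509, while the annotated locus begins at base 75109468, so the printed Mcm5 bases run into the locus. The Mcm3 stretch covers bases 18 to 47 after that gene's start and holds 2 of these words, beginning at bases 20 and 39. Mcm7 had 2 windows, and 1 of them, with its start at base 138171883, held E2F-type words. The upstream Mcm7 stretch covers -176 to -147 relative to the start, with the word beginning at -165. It is upstream of that start only, and lies inside the annotated locus, which extends to base 138172111. The other Mcm7 stretch covers bases 6 to 35 after the start, with the word beginning at base 17. The loci are scattered, with Mcm3 and Mcm6 on chromosome 1, Mcm7 on 5, Mcm2 on 6, Mcm5 on 8 and Mcm4 on 16 in GRCm38.p6. The Mcm7 locus (chr5:138164583-138172111) contains the hairpins of Mir25, Mir93 and Mir106b, which these arrays did not measure as mature miRNAs. The start of Ap4m1, an adaptor protein gene on the other strand, lies 138 bases from an Mcm7 start. Ap4m1 stayed between 2.27 and 2.94 on the 12 arrays, close to the lowest value in the table, 2.044.

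The values are log2 intensities, normalized by the authors with GCRMA, so a difference of 1 is a doubling. They compare 1 probe set between arrays and say nothing of the relative amounts of different genes. Where a gene had several probe sets, the one with the highest mean represented it, and all 6 genes then passed the filter of above 4 on at least 3 of the arrays fitted, in every comparison. In liver Mcm5 passed only through its tumor arrays, at 4.41, 5.65 and 8.53. Its liver controls read 3.82, 3.30 and 4.12. Of the 16 member probe sets, 11 passed. The liver arrays had medians of 5.55 to 5.65 and the lung arrays of 5.99 to 6.12. With 3 arrays a group, precision is limited throughout. Hepatocyte transcripts were high on 2 lung arrays, tumor replicate 1 and control replicate 3, where the albumin gene Alb stood at 14.39 and 14.65 against 8.96 to 11.08 on the other 4 lung arrays. Alveolar and club cell markers averaged 15.07 to 15.28 on all lung arrays and hepatocyte markers 15.70 to 15.83 on all liver arrays, as the tissue labels say. Liver control replicate 2 had some lung-type signal: the surfactant gene Sftpc stood at 6.54 there and at 2.24 to 2.63 on the other liver arrays. The alveolar and club cell list averaged 3.71 on that array and 2.48 to 3.06 on the other liver arrays. Its part in the MCM values was not tested. No label ties the replicate numbers to mice, and p-values measure only the spread between these arrays.

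In liver, the mean of each of the 6 MCM genes was higher in tumor-bearing mice than in PBS controls, by 1.40-fold for Mcm4 to 5.45-fold for Mcm5, where 39.6% of the 7712 genes tested had a higher mean. For 5 of the 6, all except Mcm4, the 3 tumor arrays lay above the 3 control arrays, compared with 10.4% of the genes tested. Mcm5 is in both counts although it passed the filter only through its tumor arrays, so its direction is no separate evidence. None of the 6 passed limma's test at an adjusted p of 0.05, where 0.635% of genes passed as higher and 1.87% in either direction. Without adjustment 4 of the 6, Mcm2, Mcm3, Mcm6 and Mcm7, had p under 0.05, compared with 8.17% of genes on the higher side. The median change of the 6 was 1.62 on the log2 scale and that of all genes tested was -0.07. The call depends on how the spread is estimated: with all 12 arrays in 1 fit, Mcm2, Mcm3, Mcm6 and Mcm7 passed, at adjusted p of 0.0347, 0.00894, 0.0342 and 0.0459. That fit passed more genes of every kind, 653 of 8433 in either direction, against 144 of 7712 with the liver arrays alone.

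**Figure D1:**
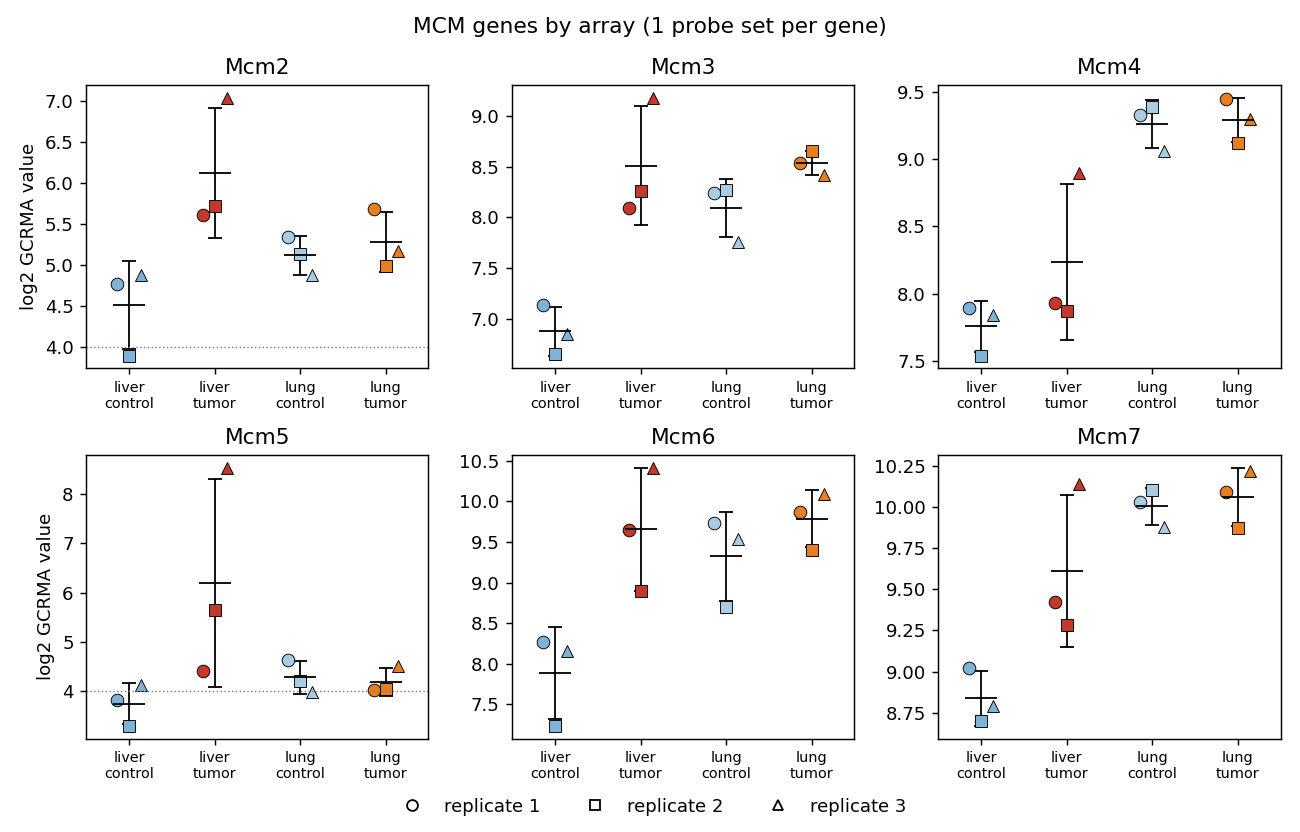
Deposited log2 intensity (y axis) of the probe set of each MCM gene with the highest mean, by group (x axis), 1 panel a gene. Points are single arrays, bars are means with SD (n = 3), and the dotted line in 2 panels marks the filter at 4. In liver the tumor arrays of each gene but Mcm4 lie above the controls, while in lung only those of Mcm3 do.

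Mcm2 is the subunit that also binds histones and forms the gate of the ring with Mcm5. Its liver values were 5.61, 5.72 and 7.04 in tumor-bearing mice and 4.77, 3.89 and 4.87 in controls. The third tumor array was the highest, and the groups did not overlap. The mean was 6.12 ± 0.80 (SD, n = 3) against 4.51 ± 0.54, a change of 1.62 ± 0.47 (SE) with an adjusted p of 0.112 in limma. Its second probe set, under the filter, read 3.32, 3.49 and 4.17 in tumor-bearing mice and 2.75 to 2.81 in controls.

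Mcm3 pairs with Mcm5 in the ring. Its liver values were 8.09, 8.26 and 9.18 in tumor-bearing mice and 7.13, 6.65 and 6.85 in controls, with a gap of almost 1 log2 unit between the groups. The means were 8.51 ± 0.59 and 6.88 ± 0.24, a 3.10-fold difference. The change of 1.63 ± 0.31 had an adjusted p of 0.0604, the smallest of the 6 genes. With each array centred on its median the adjusted p was 0.0464, and with genes under 6 left out it was 0.0418. The other 4 Mcm3 probe sets stayed under the filter, and 1 of them, at 2.88 to 5.37, had its highest value on the third liver tumor array.

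Mcm4 belongs with Mcm6 and Mcm7 to the core that unwinds DNA in a test tube. Its liver values were 7.93, 7.87 and 8.90 in tumor-bearing mice and 7.89, 7.54 and 7.84 in controls. The second tumor array lay below the highest control and the first just above it, so the groups overlapped. The change was 0.48 ± 0.30, with an adjusted p of 0.361. Its other probe set read 7.82, 8.18 and 8.68 against 7.28, 7.19 and 7.67, with no overlap, and changed by 0.84 ± 0.25 with an adjusted p of 0.117 in the limma fit of every probe set.

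Mcm5 closes the ring beside Mcm2. Its liver values were 4.41, 5.65 and 8.53 in tumor-bearing mice and 3.82, 3.30 and 4.12 in controls. The 3 tumor arrays were far apart, from just over the highest control to more than 4 log2 units above it. The change of 2.45 ± 1.05 was the highest of the 6 genes and the least precise, with an adjusted p of 0.209. Without the third tumor array it was 1.28, with an adjusted p of 0.195.

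Mcm6 is the partner of Mcm2 and Mcm4 in the ring and helps to receive Cdt1 during loading. Its liver values were 9.65, 8.90 and 10.41 in tumor-bearing mice and 8.27, 7.24 and 8.16 in controls. The groups did not overlap, and the second control array was the lowest of the 6. The change was 1.76 ± 0.46, a 3.39-fold difference, with an adjusted p of 0.0971. A second Mcm6 probe set, at 9.40, 8.96 and 10.70 against 7.92, 6.73 and 8.02, differed by 2.13 ± 0.56 with an adjusted p of 0.0995.

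Mcm7, a core helicase subunit bound by the retinoblastoma protein, had liver values of 9.42, 9.28 and 10.14 in tumor-bearing mice and 9.02, 8.70 and 8.79 in controls. The groups did not overlap, although the lowest tumor array was close to the highest control. The change was 0.78 ± 0.24, a 1.71-fold difference, with an adjusted p of 0.125. The other 3 Mcm7 probe sets differed by 0.55 to 1.52. One of them, at 7.99, 7.53 and 8.18 against 6.92, 6.79 and 6.99, differed by 1.00 ± 0.18 with an adjusted p of 0.057, the smallest among the 11 member probe sets tested in liver. All 11 had a higher mean in tumor-bearing mice, as did 41.6% of all probe sets tested, and none passed, where 1.54% did. The probe sets of 1 gene share its RNA and are not replicates.

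**Figure D2:**
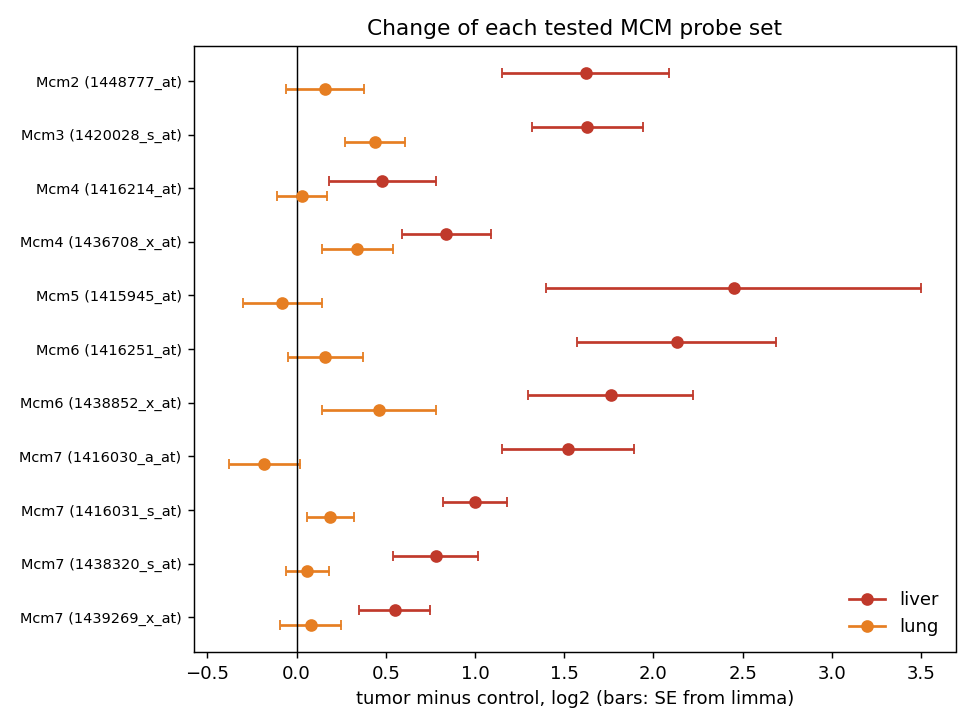
Log2 change, tumor minus control (x axis), with SE, of each of the 11 tested MCM probe sets (y axis) in liver and in lung, from limma on 3 against 3 arrays. Liver changes run from 0.48 to 2.45 and lung changes from -0.18 to 0.46.

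The third liver tumor array was the highest of the 3 tumor arrays in 6 of 6 members, and the second control array the lowest of the 3 controls in 6 of 6. Over all genes tested, the same arrays held these places in 33.1% and 33.5%. Of 68 other replication and cell cycle genes tested in liver, 50 were also highest on the third tumor array and 25 lowest on the second control array. Averaged over the 6 genes, the tumor arrays lay 0.91, 1.01 and 2.43 above the control mean, and the control arrays 0.22, -0.38 and 0.17 from it. All 3 tumor arrays were thus above the controls, and the third exceeded the other two by more than 1 log2 unit. Without the third tumor array the changes were 1.16 for Mcm2, 1.30 for Mcm3, 0.15 for Mcm4, 1.38 for Mcm6 and 0.51 for Mcm7, with adjusted p of 0.0844 to 0.535 over the 6 genes. The members followed one another across the 6 liver arrays, with Pearson's r of 0.84 to 0.97 over the 15 pairs and a median of 0.94. In lung the same 15 pairs had r of 0.03 to 0.86 and a median of 0.35. These points share arrays and, in liver, the difference between groups, and are given as a description.

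**Figure D3:**
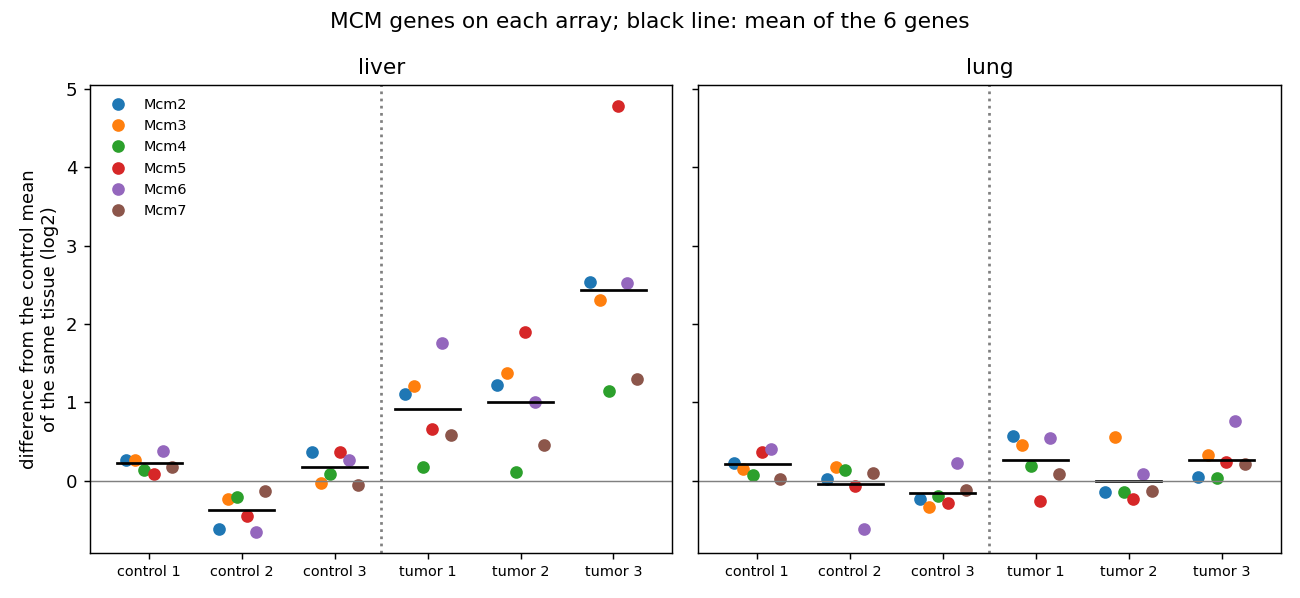
Deviation of each MCM gene on each array (x axis) from the control mean of the same organ, in log2 units (y axis); points are genes and black lines the mean of the 6. The third liver tumor array has the highest mean, 2.43, and the means of the lung arrays lie between -0.16 and 0.27.

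Marker lists of other cell types were read beside these liver values, since in whole tissue more cells of a type and more RNA per cell cannot be told apart. The mature neutrophil markers, 9 of 10 measured, averaged 4.92 to 5.22 on the tumor arrays and 3.35 to 4.31 on the controls, and Cxcr2, Mmp8, Mmp9, Cd177 and Clec4e were under 4 on every liver array. The 4 that were tested all had a higher mean, with a median change of 3.08, where 39.6% of genes had a higher mean. In limma 1 of these 4 passed, at an adjusted p of 0.0348, where 0.635% of genes passed as higher. The filter at 4 can admit dim markers through the group where they are high, so their shared direction is no separate evidence. The same limit applies to the immature granulocyte and erythroid precursor counts. Immature granulocyte markers averaged 4.81 to 5.06 against 4.32 to 4.63, with Mpo, Elane, Ctsg, Camp, Ltf and Ms4a3 under 4 throughout. The 3 tested had a higher mean, with a median change of 0.72, and none passed. Erythroid precursor markers were lower, at 3.93 to 4.38 against 4.49 to 4.54, and Klf1, Epb42, Hemgn, Ermap and Rhag were under 4. The 4 tested all had a lower mean and 2 passed, where 1.87% of genes passed in either direction. Tfrc, 1 of these 2, differed by -1.67 ± 0.23 with an adjusted p of 0.0419 in limma. Alas2 of the same list differed by only -0.15 ± 0.34 (adjusted p 0.8) and its groups overlapped, so the fall was uneven within the list. On the third tumor array the mature neutrophil list averaged 4.94 and the immature granulocyte list 4.81. Endothelial markers averaged 6.89 on that array and 6.23 to 6.54 on the other liver arrays. Of the 6 endothelial genes tested, 4 had a higher and 2 a lower mean in tumor-bearing mice, and none passed. Monocyte and macrophage markers averaged 8.68 on the third tumor array and 8.25 to 8.66 on the others. Of the 6 tested, 5 had a higher and 1 a lower mean, and none passed. Hepatocyte markers were at 15.83 on both the first and the third tumor array. B cell markers spanned 3.99 to 4.18 against 3.66 to 4.23, and T and NK cell markers 2.05 to 2.32 against 2.05 to 2.21. Of the epithelial carcinoma markers, which averaged 5.97 to 6.48 against 6.18 to 6.26, Krt5, Krt14 and Krt7 were under 4 on every liver array. The part of these cells in the MCM result was not tested.

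In lung, 5 of the 6 members had a higher mean in tumor-bearing mice, by at most 0.46 on the log2 scale, and Mcm5 had a lower one. Over all 7907 genes tested 47% had a higher mean. Only Mcm3 had non-overlapping groups, where 8.99% of genes had tumor arrays all above the controls. None passed limma's test, where 0.62% of genes passed as higher and 0.734% in either direction. Mcm3 alone had an unadjusted p under 0.05, as did 6.72% of genes on the higher side. The median change was 0.11, and -0.01 over all genes tested.

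Mcm3 read 8.54, 8.65 and 8.42 in tumor-bearing lungs and 8.24, 8.27 and 7.76 in controls. The change was 0.44 ± 0.16, a 1.36-fold difference, with an adjusted p of 0.34. Mcm6 read 9.87, 9.40 and 10.09 against 9.73, 8.70 and 9.54, a change of 0.46 ± 0.32 with an adjusted p of 0.603. Its control arrays spanned more than the difference between the means.

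Mcm2 was measured at 5.68, 4.98 and 5.17 in tumor-bearing lungs and at 5.34, 5.13 and 4.87 in controls, 0.16 ± 0.22 apart with an adjusted p of 0.804. Mcm4 was measured at 9.45, 9.12 and 9.30 against 9.33, 9.39 and 9.06, 0.03 ± 0.14 apart with an adjusted p of 0.949. Mcm7 was measured at 10.09, 9.87 and 10.22 against 10.03, 10.10 and 9.88, 0.06 ± 0.12 apart with an adjusted p of 0.888. In each of these the groups overlapped. Mcm5 lay low, at 4.02, 4.04 and 4.52 against 4.64, 4.21 and 3.98, with a change of -0.08 ± 0.22 and an adjusted p of 0.908. Of the 11 tested probe sets, 9 had a higher and 2 a lower mean, against 44.6% of all probe sets with a higher one. None passed, where 0.407% of all probe sets did, and the smallest adjusted p was 0.362.

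Without both lung arrays rich in hepatocyte transcripts, an alternative chosen after seeing the data, the lung median of the 6 genes was -0.08, and Mcm2, Mcm4 and Mcm7 then had changes of -0.17, -0.15 and -0.02. Leaving out lung tumor replicate 1 alone gave -0.04 for Mcm2, and leaving out lung control replicate 3 alone gave -0.07 for Mcm4. The lung data therefore gave no direction for these 3 genes. Mature neutrophil markers averaged 9.06 to 10.01 in tumor-bearing lungs against 5.75 to 6.27 in controls, immature granulocyte markers 6.12 to 6.55 against 3.67 to 4.18, and B cell markers 6.62 to 6.94 against 4.44 to 5.04. Their part in the lung values of the MCM genes was not tested.

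The test of the difference between the organs compares the change in liver with that in lung over all 12 arrays. It shares all its arrays with both comparisons above and is no independent evidence. The liver change exceeded the lung change for 6 of 6 genes, as for 43.5% of the 8433 genes tested, but none passed in limma, where 1.55% did and 0.522% with the liver change the higher. Unadjusted p were under 0.05 for 4 of the 6, Mcm2, Mcm3, Mcm5 and Mcm7, compared with 6.26% of genes on that side. The difference was 1.46 ± 0.55 for Mcm2 (adjusted p 0.217), 1.19 ± 0.37 for Mcm3 (0.15) and 2.53 ± 1.13 for Mcm5 (0.29). It was 0.45 ± 0.35 for Mcm4 (0.548), 1.30 ± 0.60 for Mcm6 (0.302) and 0.72 ± 0.29 for Mcm7 (0.234). All 11 tested probe sets had the same sign, as had 46.5% of all probe sets, and none passed, where 1.34% did. An effect of the tumor on the MCM genes that differs between liver and lung was thus not shown at this threshold.

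Every member had a lower mean in control liver than in control lung, as had 55.5% of the 8270 genes tested. For 5 of the 6, all except Mcm5, every liver array lay below every lung array, as for 47.6% of genes. For Mcm2 this held by less than the printed digits, with the highest liver and the lowest lung control both at 4.87. Mcm3, Mcm4, Mcm6 and Mcm7 passed as lower in limma, as did 45.6% of genes, while 81.1% passed in either direction. Mcm4, the widest apart, differed by -1.51 ± 0.14 with an adjusted p of 0.000111. Mcm7 differed by -1.17 ± 0.11 (adjusted p 0.000148), Mcm3 by -1.21 ± 0.19 (0.0014) and Mcm6 by -1.43 ± 0.38 (0.0136). Mcm2, at -0.61 ± 0.29 (0.0956), and Mcm5, at -0.53 ± 0.26 (0.107), did not pass, although with the mean of all its probe sets Mcm2 did, at -0.68 ± 0.17 (0.0109). Between organs these sizes depend on scaling. Centring each array on its median moved the median over all genes from -0.18 to 0.30, the median of the 6 members from -1.19 to -0.72, and the adjusted p of Mcm6 to 0.0531. This comparison uses the same liver controls as the tumor comparison, so a low control array enters both.

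The order of the 4 group means was read for each gene. Liver control was the lowest group in all 6. For Mcm2 the order was liver tumor, lung tumor, lung control and liver control. Only the last step was free of overlap, and that by less than the printed digits, with 4.87 on both sides. Mcm3 and Mcm6 shared the order lung tumor, liver tumor, lung control and liver control, again with overlap except at the last step. Mcm4 and Mcm7 ran from lung tumor to lung control, liver tumor and liver control. Of these steps, that between lung control and liver tumor was free of overlap for Mcm4, and the last one for Mcm7. For Mcm5 all neighbouring groups overlapped.

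Genes that load, activate and follow the helicase were taken from lists of known members. Among the origin recognition and loading genes, 7 of 9 were tested in liver, 4 with a higher and 3 with a lower mean, and none passed. Over all genes tested in liver 39.6% had a higher mean. Orc6, a subunit of the origin recognition complex, differed by 0.65 ± 0.23 with an adjusted p of 0.152, and Orc3 of the same complex by 0.28 (0.236). The loader Cdt1, named after its values were seen, had means of 7.48 ± 0.80 and 6.65 ± 0.33 (adjusted p 0.273), and its inhibitor Gmnn, likewise, differed by 0.14 (0.568).

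Of the other MCM family and partner genes, Mcm10, an initiation factor that is not part of the ring, read 10.69 ± 0.08 in tumor-bearing and 10.20 ± 0.09 in control livers. The change was 0.49 ± 0.08 with an adjusted p of 0.0535. The lung arrays had this probe set at 2.37 to 3.00, and the other Mcm10 probe set stood at 2.04 throughout, so the identity of the signal is uncertain. Mcmbp, which encodes a protein that binds MCM subunits, differed by -0.02 (adjusted p 0.888).

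Among the helicase activation genes, 5 of 6 tested had a higher mean in liver, where 39.6% of all genes did, and none passed. The GINS subunit gene Gins1 differed by 1.41 ± 0.58 (0.199) and Tipin, of the fork protection complex, by 0.84 ± 0.25 (0.113). Gins1 passed the filter only through its tumor arrays, since its liver controls read 4.33, 3.90 and 2.49. Among replication fork genes, 16 of 22 were higher, against the same 39.6% of all genes, none passed, and the median was 0.29. Rpa3, a subunit of the single-strand binding protein, differed by 0.64 ± 0.12 (0.0581), and Pole4, of DNA polymerase epsilon, by -0.50 ± 0.08 (0.0545). The lists therefore held single genes close to the threshold in either direction.

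In the list of E2F, RB and G1 regulators, 9 of 20 genes tested in liver had a higher mean, where 39.6% of all genes did. Of the 20, 1 passed, where 0.635% of all genes passed as higher and 1.87% in either direction. That gene was Myc, a transcription factor that promotes entry into the cell cycle, which rose 3.29-fold, from 4.07 ± 0.13 to 5.79 ± 0.23. The change of 1.72 ± 0.14 had an adjusted p of 0.0323, and of 0.0568 to 0.122 when any 1 array was left out. The liver controls of Myc, at 3.93, 4.10 and 4.19, lay close to the filter of 4. In lung Myc differed by -0.19 (0.725), and the liver change exceeded the lung change by 1.91 ± 0.25 with an adjusted p of 0.0094. Among S phase genes 5 of 9 had a higher mean in liver, where 39.6% of all genes did, and none passed. Rrm1 differed by 0.52 ± 0.12 (0.0818) and Rrm2 by 1.17 ± 0.42 (0.159), both of ribonucleotide reductase. Of the G2 and mitosis genes only Cenpa, at 0.90 ± 0.18 (0.0614), and Cdc20, at 1.55 ± 0.56 (0.16), were tested in liver.

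In lung none of the 7 lists had a gene past the threshold. The proliferation marker Mki67 had means of 6.71 ± 0.56 and 5.03 ± 0.56, a change of 1.68 ± 0.38 with an adjusted p of 0.146. In liver the same gene was under the filter, at 3.99 ± 0.56 and 3.65 ± 0.12. Other lung genes with small p were Dna2 of the replication fork, 0.67 ± 0.14 apart (0.136), Timeless, 0.82 ± 0.22 apart (0.194), Tipin, 0.49 ± 0.12 apart (0.16), and Rrm2, 0.87 ± 0.24 apart (0.209). Cdkn2c, an inhibitor of G1 kinases, was 0.86 ± 0.24 apart (0.206) and Cdc20 0.74 ± 0.18 apart (0.16). The other genes with the smallest p of their lists were Orc3 at 0.23 (0.394) and Orc4 at -0.23 (0.5), both of the origin recognition complex, and Mcmbp at -0.22 (0.45). The polymerase delta subunit gene Pold4 differed by 0.45 (0.197), the repressor gene E2f6 by -0.35 (0.315) and the chromatin remodeller gene Hells by 0.53 (0.417).

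**Figure D4:**
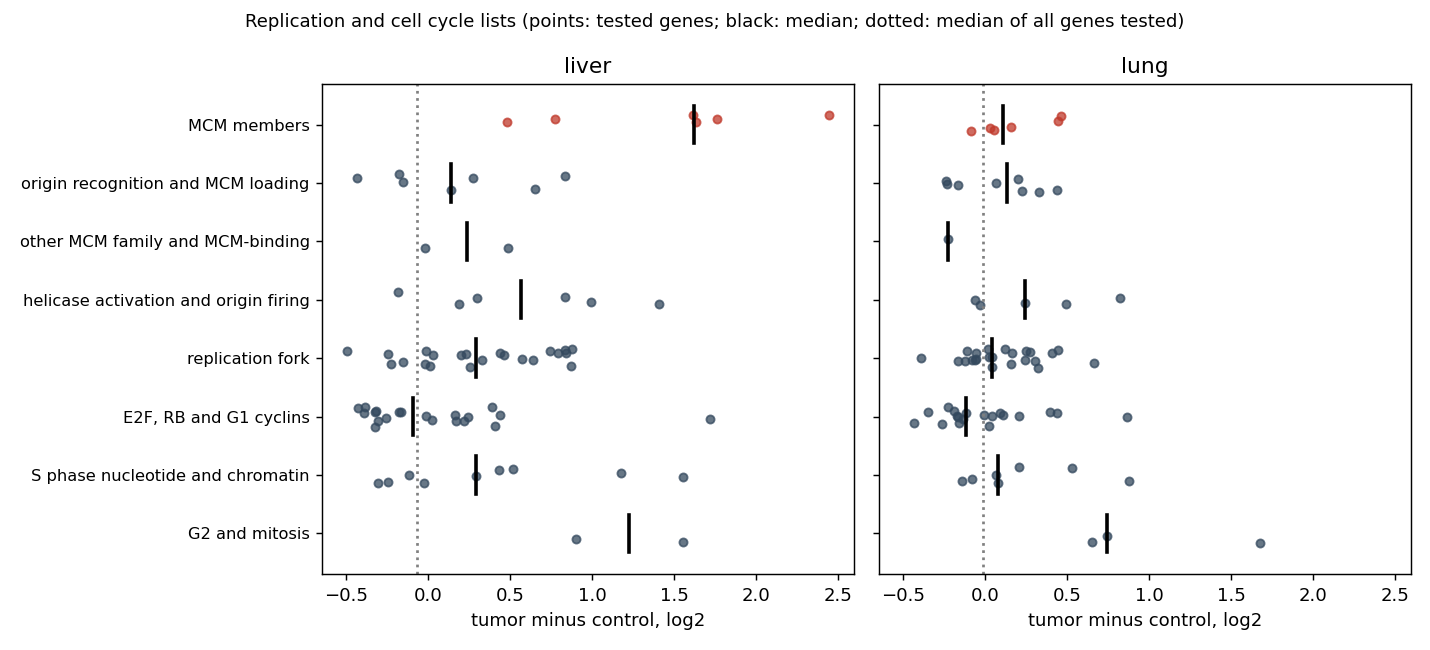
Log2 change, tumor minus control (x axis), of every tested gene in each replication and cell cycle list (y axis), in liver and in lung; points are genes, black lines the list median and dotted lines the median of all genes tested. The MCM median is 1.62 in liver and 0.11 in lung, and the fork list median 0.29 in liver and 0.05 in lung.

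The genes most like the mean of the 6 MCM genes were ranked by Pearson's r over the 12 arrays, after subtracting each gene's mean within each organ, among 7188 genes. The first was Rfc4, a subunit of the clamp loader, with r of 0.96, and 0.99 and -0.10 within the 6 liver and the 6 lung arrays. Pcna, the sliding clamp, had 0.92, with 0.97 in liver and 0.27 in lung. The other 6 were Ptbp1, Mxra8, Dhx58, Dek, H2-D1 and Dsn1, with r of 0.90 to 0.92 over the 12 arrays and 0.91 to 0.97 in liver. Their lung values were -0.15 to 0.45. The mean of the 6 MCM genes lay -0.38 to 2.43 from the control mean on liver arrays and -0.16 to 0.27 on lung arrays. A ranking over the 12 arrays therefore favours genes that follow the liver values. None of the 8 passed the liver test, with Dhx58, a helicase of antiviral sensing, nearest at 1.24 (adjusted p 0.0591), Rfc4 at 0.84 (0.131) and Pcna at 0.46 (0.238).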

How the data were processed

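The authors deposited 1 table of log2 intensities for 12 arrays, normalized with GCRMA; the submitters' processing notes name GCRMA and limma, with versions and settings not given in the sources used here. GCRMA leaves undetected probe sets near a common low value and sets scale across arrays, so small changes of dim genes are compressed. Probe sets were named from the platform annotation: 20380 had 1 symbol, 691 several and 1555 were not listed. Columns were matched to samples by label, and 0 were left unmatched. Of a gene's probe sets the one with the highest mean was tested, if above 4 on at least 3 arrays fitted, with limma 3.58.1 (lmFit, eBayes) in R 4.3.3, Benjamini-Hochberg over all genes and a threshold of 0.05. Each tissue was fitted alone, and the difference between tissues on all 12 arrays. A second fit took every probe set. The procedure was tested on simulated data. All 6 members are named; of each list the genes past the threshold, or else the 2 with the smallest p; and the 8 genes most like the members. Members and lists were chosen with earlier results of these data known. Replicate numbers were checked as pairs by correlating deviations from group means: the tumor and control pairs had r of -0.28 to 0.33, and the numbers were not used. Figures were drawn in matplotlib 3.10.9. Alternatives covered filters, probe set choice, scaling, eBayes options, weights, blocks and each array left out.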

Additional observations from a re-analysis of the deposited data

How the results depend on the processing

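In liver each MCM gene had a higher mean under every alternative in which it was tested. Mcm2 and Mcm5 were not tested with the filter at 6, nor Mcm3 with the mean of all probe sets. The medians were 1.20 (4 genes, filter at 6) to 1.80. Genes past the threshold, 0 of 6, became 1 of 4 with the filter at 6, 1 with median centring and 4 with all 12 arrays in 1 fit. Over all genes the liver count of 144 was 81 with no filter, 351 with the filter at 6, 302 with an eBayes trend, 653 with all 12 arrays in 1 fit, 0 with the replicate block (1791 at unadjusted p under 0.05), and 0 to 1 without single arrays. The lung count of 58 was 99 with array weights, 220 with all 12 arrays in 1 fit, 1 with the replicate block, 5 to 33 without single arrays, and 0 (769 at unadjusted p under 0.05) with both hepatocyte-rich arrays left out. For the difference between organs the replicate block gave 14 genes against 131. The labels tie the numbers to no mice, and not every array correlated best with its own number. That count was 57 to 145 without single arrays and 64 with both hepatocyte-rich arrays left out. The median difference of the MCM genes between organs, 1.24, was 0.89 to 1.48 without single arrays. Without liver tumor replicate 2, 1 Mcm7 probe set passed the test between organs (1.00 ± 0.18, adjusted p 0.0365), so the probe set count was 0 to 1. Control liver against control lung gave 6705 genes, and 10097 probe sets when every probe set was tested; the MCM median was -0.72 with median centring.

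The sign turned for small lung changes. Mcm7 was -0.18 with its most variable probe set, -0.02 without lung tumor replicate 3 and -0.01 without lung control replicate 3. Single arrays left out gave lung ranges of -0.04 to 0.31 for Mcm2, -0.07 to 0.12 for Mcm4, -0.25 to 0.10 for Mcm5 and -0.02 to 0.15 for Mcm7. Without lung tumor replicate 1, Mcm2 was -0.04, Mcm4 -0.05 and Mcm5 0.00. Mcm5 was 0.10 without lung control replicate 1, and Mcm4 -0.07 without lung control replicate 3. With both hepatocyte-rich arrays left out, Mcm2 was -0.17, Mcm4 -0.15, Mcm7 -0.02 and the MCM median -0.08. In liver Mcmbp was 0.02 without tumor replicate 2 and 0.00 without control replicate 3. The causes were not tested. The number of arrays and, for Mcm2 and Mcm5, values near the filter limit the precision.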
